A study of Homo sapiens with 6 samples.

Results

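Stromal miRNAs of the miR-143 and miR-145 cluster and of the miR-199a and miR-214 cluster were followed in small RNA libraries of extracellular vesicles (EVs). The members were set by name: hsa-miR-143-3p, hsa-miR-145-5p and hsa-miR-145-3p of the first cluster, and hsa-miR-199a-5p, hsa-miR-199a-3p and hsa-miR-214-3p of the second. All 6 are among the 832 miRNAs of the deposited table. The EVs were pelleted by ultracentrifugation from the medium of MDA-MB-231, a human triple-negative breast cancer line labelled as epithelial, of genotype WT (WT EV, n = 3) or with knockdown of ACO1 (KD EV, n = 3). ACO1 is an iron-responsive RNA-binding protein, and the study asked whether it takes part in miRNA secretion. The knockdown reagent, and whether the knockdown cells are 1 clone or a pool, are not given in the sources used here. Small RNA libraries do not hold ACO1 mRNA, so they do not show the knockdown itself. Cells of both groups were grown with fetal bovine serum and moved to EV-free medium for collection, and nothing states that replicates are separate cultures, so the p-values measure the spread between these libraries.

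A miRNA is cut from a hairpin precursor, and each hairpin can release a 5p and a 3p arm, one of which usually outnumbers the other. Transcription of miR-143 and miR-145 is driven by serum response factor with myocardin in smooth muscle, where both hold cells in a contractile state, and fibroblasts also express them. miR-199a and miR-214 are known from mesenchymal cells, activated fibroblasts and fibrosis. In solid tumours the reads of both clusters come largely from the stroma rather than from the carcinoma cells.

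The mature sequences are shown because the seed, bases 2 to 8 and here in capitals, sets which mRNAs each miRNA can pair with. They are RefSeq entries of GRCh38.p14, and all 6 names matched.
hsa-miR-143-3p: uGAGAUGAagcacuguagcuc
hsa-miR-145-5p: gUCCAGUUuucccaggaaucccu
hsa-miR-145-3p: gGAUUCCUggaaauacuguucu
hsa-miR-199a-5p: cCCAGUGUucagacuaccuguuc
hsa-miR-199a-3p: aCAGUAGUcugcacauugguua
hsa-miR-214-3p: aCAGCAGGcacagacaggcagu

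The 6 seeds all differ. Among 2370 mature human miRNAs of the RefSeq table, the seed of hsa-miR-143-3p is shared by hsa-miR-4770 and hsa-miR-6088. That of hsa-miR-214-3p is shared by hsa-miR-3619-5p and hsa-miR-761. None of these 4 is in the count table. The seed of hsa-miR-199a-3p recurs in hsa-miR-3129-5p, which is not in the count table, and in hsa-miR-199b-3p, which is. hsa-miR-145-5p, hsa-miR-145-3p and hsa-miR-199a-5p share their seeds with no other entry of the RefSeq table. hsa-miR-199b-5p, which is in the count table, has no mature entry in the RefSeq table, so its seed was not compared. The hairpin of its gene, MIR199B, holds CCAGUGU, the seed bases of hsa-miR-199a-5p, on its 5p side. The seed of hsa-miR-199a-5p is therefore not shown to be unique among the counted miRNAs.

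The miR-143 and miR-145 hairpins lie on the plus strand of chromosome 5, MIR143 from 149428918 to 149429023 and MIR145 from 149430646 to 149430733, with 1622 bases between them. GENCODE places MIR143 in an exon and MIR145 in an intron of the long non-coding RNA CARMN. MIR199A2 (172144535 to 172144644) and MIR214 (172138798 to 172138907) lie on the minus strand of chromosome 1, 5627 bases apart. Both are within the long non-coding RNA DNM3OS, MIR199A2 in its intron and MIR214 in its exon, and both are antisense to introns of DNM3. A second copy, MIR199A1, lies on the minus strand of chromosome 19 from 10817426 to 10817496, antisense to an intron of DNM2. A paralog, MIR199B, lies on the minus strand of chromosome 9 from 128244721 to 128244830, antisense to an intron of DNM1. The hairpins of these 3 genes are shown with the 3p arm in capitals, because this arm reads the same in all of them.
MIR199A2: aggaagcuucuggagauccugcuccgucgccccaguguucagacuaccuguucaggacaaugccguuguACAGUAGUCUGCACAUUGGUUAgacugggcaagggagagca
MIR199A1: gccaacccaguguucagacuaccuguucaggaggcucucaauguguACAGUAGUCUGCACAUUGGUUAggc
MIR199B: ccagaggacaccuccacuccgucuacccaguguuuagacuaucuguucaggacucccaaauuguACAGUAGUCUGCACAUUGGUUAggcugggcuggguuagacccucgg

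The table lists this arm under 2 names. hsa-miR-199a-3p had 277, 260 and 284 reads in WT EV, and hsa-miR-199b-3p had the same 277, 260 and 284. In KD EV the counts were 342, 160 and 330 against 341, 159 and 330. The 2 names therefore differed by at most 1 read in any library and are treated as 1 measurement of the 3p arm, whose reads cannot be assigned to MIR199A1, MIR199A2 or MIR199B.

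Depth was 224948 to 230562 counted reads in WT EV and 67873 to 175924 in KD EV, with KD EV replicate 2 the shallowest. A count of 0 allows a level of up to 3 reads, which is 13.0 to 13.3 TPM in WT EV and 17.1 to 44.2 TPM in KD EV, where TPM is the count scaled to the library total, without a length term. Libraries of 1 group differed by more than counting noise, and KD EV replicate 3 differed most from its group (chi-square per degree of freedom 22.6 and 17.3 against replicates 1 and 2, which gave 7.21 against each other). Of the label's cell type, 7 epithelial miRNAs (the miR-200 family, miR-205 and miR-203a) summed to only 634 to 992 TPM, and hsa-miR-221-3p, hsa-miR-222-3p, hsa-miR-100-5p and hsa-miR-125b-5p, abundant in MDA-MB-231, to 115362 to 131275 TPM.

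The 6 members differed widely in abundance. Together they made up 0.352%, 0.358% and 0.351% of reads in WT EV and 0.531%, 0.569% and 0.575% in KD EV. hsa-miR-143-3p and hsa-miR-199a-3p carried nearly all of it. These are shares of pooled EV RNA, in which fewer vesicles of a kind and less of a miRNA per vesicle cannot be told apart. hsa-miR-145-5p and hsa-miR-199a-5p had 10 to 42 reads per library, and hsa-miR-145-3p and hsa-miR-214-3p had 4 or fewer.

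**Figure D1:**
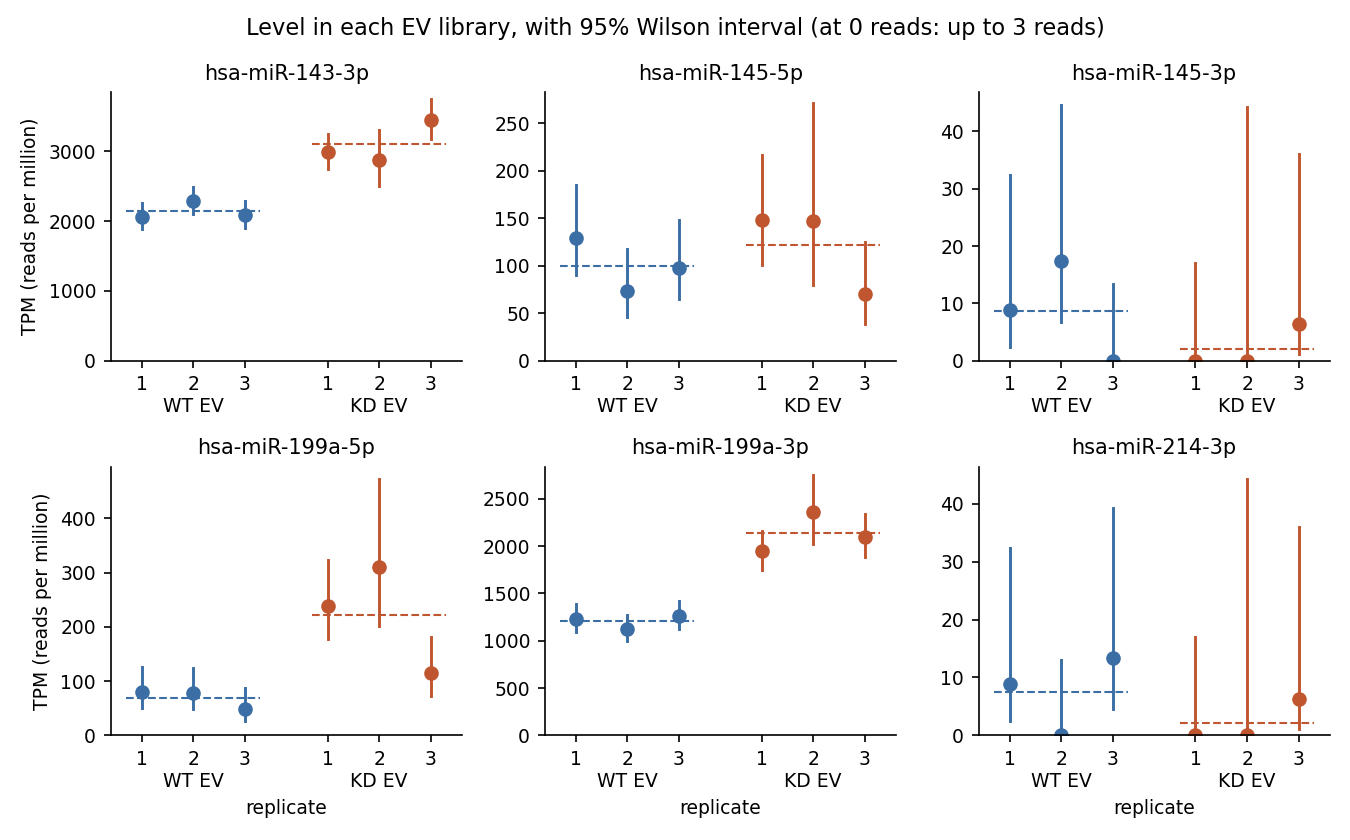
TPM of each member (y axis, starting at 0) in the 3 libraries of WT EV (blue) and of KD EV (orange). Points are libraries, vertical bars are 95% Wilson intervals that cover counting error only (for 0 reads, the level of 3 reads), and dashed lines are group means. All orange points lie above all blue points for hsa-miR-143-3p, hsa-miR-199a-5p and hsa-miR-199a-3p, whereas hsa-miR-145-3p and hsa-miR-214-3p have 0 reads in 3 of 6 libraries each. TPM is not TMM-scaled, and how many other miRNAs lie apart likewise was not counted.

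hsa-miR-143-3p, the dominant arm of MIR143 and known to target ELK1, had the highest level of the 6. It had 464, 526 and 469 reads in WT EV, which is 2063, 2281 and 2084 TPM. In KD EV it had 525, 195 and 543 reads, or 2984, 2873 and 3452 TPM. It ranked 44th to 51st of all miRNAs in every library. The means were 2143 ± 120 TPM (SD, n = 3) and 3103 ± 307 TPM (SD, n = 3), and the groups did not overlap on this scale.

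hsa-miR-199a-3p, an arm known to target MET and MTOR, came next. Its levels were 1231, 1128 and 1262 TPM in WT EV and 1944, 2357 and 2098 TPM in KD EV. The means were 1207 ± 70.5 TPM (SD, n = 3) and 2133 ± 209 TPM (SD, n = 3), a ratio of 1.77. On TPM every knockdown library again lay above every control library, and how many other miRNAs do so was not counted. With library totals the median log2 fold change of all tested miRNAs was also above 0, at 0.32. It ranked 54th to 73rd.

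hsa-miR-199a-5p, the other arm of the 2 miR-199a hairpins and a known repressor of caveolin 1 in fibroblasts, had 18, 18 and 11 reads in WT EV and 42, 21 and 18 in KD EV. As TPM these are 80.0, 78.1 and 48.9 against 239, 309 and 114. The means were 69.0 ± 17.4 TPM (SD, n = 3) and 221 ± 98.7 TPM (SD, n = 3), a ratio of 3.20. The groups did not overlap on TPM, but the Wilson interval of KD EV replicate 3 (72.4 to 181 TPM) covered the levels of WT EV replicates 1 and 2.

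hsa-miR-145-5p, the dominant arm of MIR145 and known for repressing KLF4 and POU5F1, had 29, 17 and 22 reads in WT EV and 26, 10 and 11 in KD EV. This gave 129, 73.7 and 97.8 TPM against 148, 147 and 69.9 TPM. The lowest and the highest of the 6 libraries were both KD EV libraries, so the groups overlapped.

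The remaining members were near the limit of detection. hsa-miR-145-3p, the minor arm of MIR145, had 2, 4 and 0 reads in WT EV and 0, 0 and 1 in KD EV. hsa-miR-214-3p, known to be made in activated fibroblasts, had 2, 0 and 3 reads against 0, 0 and 1. A difference in either was not detectable at this depth.

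In order of mean TPM in WT EV, hsa-miR-143-3p stood above hsa-miR-199a-3p, which stood above hsa-miR-145-5p, hsa-miR-199a-5p, hsa-miR-145-3p and hsa-miR-214-3p. The 3 libraries of hsa-miR-145-5p (73.7 to 129 TPM) overlapped those of hsa-miR-199a-5p (48.9 to 80.0 TPM), and those of hsa-miR-145-3p overlapped those of hsa-miR-214-3p. In KD EV, hsa-miR-199a-5p (114 to 309 TPM) had the higher mean of the middle pair, and its libraries still overlapped those of hsa-miR-145-5p (69.9 to 148 TPM).

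The change between EV groups was tested with edgeR's quasi-likelihood test on the counts, fitted to the 517 miRNAs with a read in at least 3 of the 6 libraries. All 6 members entered the fit, hsa-miR-145-3p and hsa-miR-214-3p with reads in exactly 3 libraries. Libraries were scaled by TMM, which sets their scale so that the bulk of miRNAs shows little change. Fold changes are KD EV against WT EV.

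With TMM, 1 of the 6 members rose and none fell at an adjusted p under 0.05, where 2.51% of all tested miRNAs rose and 6% fell. The one that rose was hsa-miR-199a-5p, at a log2 fold change of 1.25 ± 0.35 (SE; adjusted p = 0.00981 in the quasi-likelihood test of edgeR, Benjamini-Hochberg adjusted). Its TMM-scaled levels, as counts per TMM-adjusted library total (CPM), were 87.5, 87.0 and 58.2 in WT EV and 215, 258 and 105 in KD EV, so the groups stayed apart after scaling. The call rests on few reads and depends on single libraries. Leaving out WT EV replicate 3 gave an edgeR adjusted p of 0.111, leaving out KD EV replicate 1 gave 0.101, and leaving out KD EV replicate 2 gave 0.0838, with log2 fold changes of 1.08, 1.10 and 1.05. Without KD EV replicate 3 the log2 fold change was 1.58 (adjusted p = 0.000512 by the same test).

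hsa-miR-199a-3p did not pass the threshold with TMM. Its log2 fold change was 0.46 (95% interval 0.10 to 0.82, adjusted p = 0.104 in the quasi-likelihood test of edgeR, Benjamini-Hochberg adjusted). Without KD EV replicate 3, the library farthest from its group, it was 0.45 with an adjusted p of 0.0425 by the same test. None of the other fits without 1 library passed, with adjusted p from 0.0722 (without KD EV replicate 1) to 0.375 (without WT EV replicate 2) by that test. Its TMM-scaled levels of 1256 to 1502 CPM in WT EV lay below those of 1754 to 1968 in KD EV.

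hsa-miR-143-3p had a log2 fold change of 0.18 (95% interval -0.14 to 0.51, adjusted p = 0.654 by the same edgeR test), and after TMM scaling its groups overlapped, at 2255 to 2541 against 2399 to 3161 CPM. Without KD EV replicate 3 it was 0.082 and without KD EV replicate 2 it was 0.28, neither past the threshold. hsa-miR-145-5p had -0.10 (95% interval -0.83 to 0.63, adjusted p = 0.927 by the same edgeR test). The fitted values of hsa-miR-145-3p (-1.85, 95% interval -4.64 to 0.93) and hsa-miR-214-3p (-1.63, 95% interval -4.47 to 1.22) depend on the prior count of the fit and say little beyond the reads themselves.

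The number of members that passed depended on the scaling. With library totals in place of TMM, 3 of 6 members rose, where 11.2% of all tested miRNAs rose and 2.51% fell. These were hsa-miR-143-3p (log2 fold change 0.54, adjusted p = 0.0157), hsa-miR-199a-5p (1.60, adjusted p = 0.000164) and hsa-miR-199a-3p (0.82, adjusted p = 0.000258), all in the quasi-likelihood test of edgeR, Benjamini-Hochberg adjusted. This choice also moved the median of all tested miRNAs from -0.03 to 0.32, so hsa-miR-143-3p lay 0.22 above the median with either scaling, and hsa-miR-145-5p changed sign, from -0.10 to 0.24. hsa-miR-21-5p, the most abundant miRNA of these EVs, fell with TMM (log2 fold change -1.44) and with library totals (-1.09). Its mean was 299864 TPM in WT EV and 141141 TPM in KD EV. TPM values of a library add up to a fixed sum. In an alternative added after seeing the data, the totals were taken without the reads of hsa-miR-21-5p. The log2 fold changes were then 0.25 for hsa-miR-143-3p, -0.05 for hsa-miR-145-5p, 0.52 for hsa-miR-199a-3p and 1.30 for hsa-miR-199a-5p. Of these, hsa-miR-199a-3p (adjusted p = 0.0393) and hsa-miR-199a-5p (adjusted p = 0.007) passed by the same edgeR test, which makes 2 of 6 members, where 4.45% of all tested miRNAs rose and 5.22% fell.

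**Figure D2:**
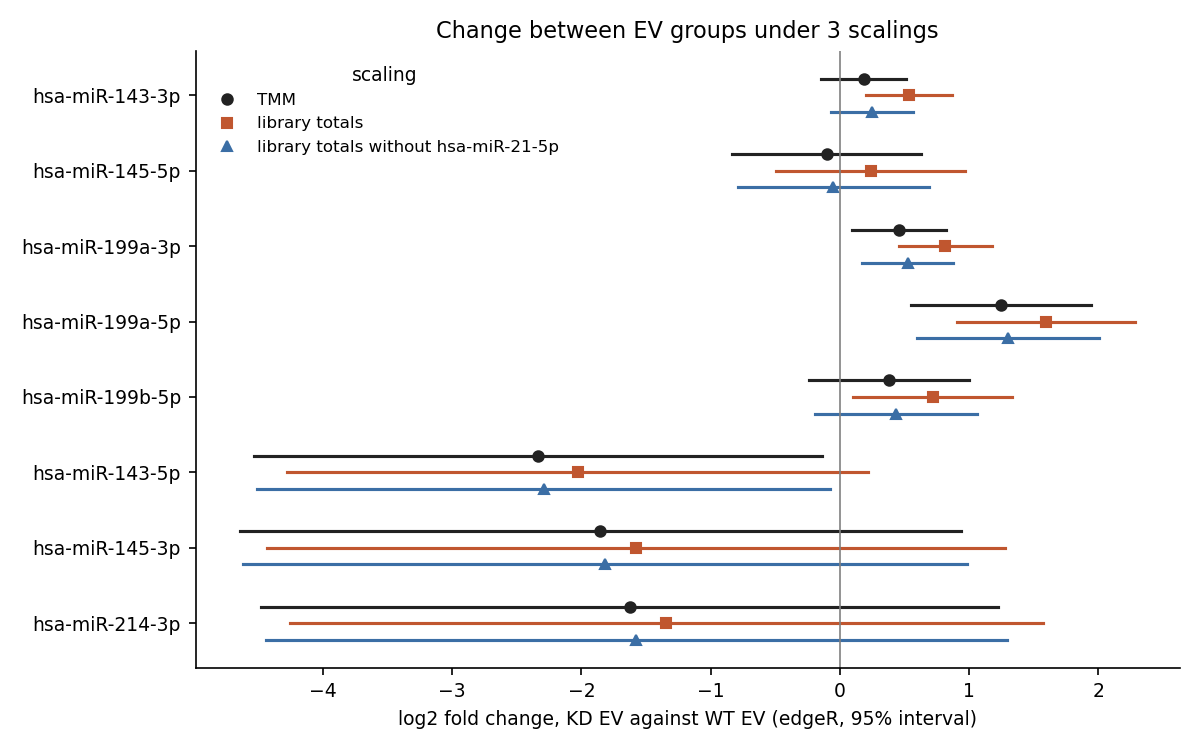
Log2 fold change of KD EV against WT EV from edgeR (x axis) for the 6 members and for hsa-miR-143-5p and hsa-miR-199b-5p, with 95% intervals as horizontal lines. Black circles use TMM, orange squares library totals, and blue triangles library totals without hsa-miR-21-5p, an alternative added after seeing the data. The intervals of hsa-miR-199a-5p and hsa-miR-199a-3p lie above 0 under all 3 scalings, that of hsa-miR-143-3p only with library totals, and the 3 arms with the fewest reads have intervals several log2 units wide.

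Each member was further compared on log2(TPM + 1) by an exact permutation test, two-sided, in which 3 libraries against 3 allow no p under 0.1. hsa-miR-143-3p, hsa-miR-199a-5p and hsa-miR-199a-3p each reached exact p = 0.1, hsa-miR-145-5p had exact p = 0.6, and hsa-miR-145-3p and hsa-miR-214-3p had exact p = 0.4. TPM carries no TMM factors, and with library totals the median log2 fold change of all tested miRNAs was 0.32. How many of all miRNAs separate the groups on TPM was not counted, so this does not set the members apart.

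Ratios of reads within a library do not depend on scaling, and they show how far miRNAs of 1 cluster moved together. For each read of hsa-miR-145-5p there were 16.0, 30.9 and 21.3 reads of hsa-miR-143-3p in WT EV and 20.2, 19.5 and 49.4 in KD EV. The log2 ratio of hsa-miR-145-5p to hsa-miR-143-3p was -4.42 ± 0.47 (SD, n = 3) and -4.70 ± 0.75 (SD, n = 3), a difference within the spread between libraries (exact two-sided permutation p = 0.7). Without KD EV replicate 3 the difference turned from -0.27 to 0.16.

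The chromosome 1 cluster was far less even. The 6 libraries held 1653 reads of hsa-miR-199a-3p and 6 of hsa-miR-214-3p, although MIR199A2 and MIR214 share the transcript DNM3OS. Reads of the 3p arm can also come from MIR199A1 and MIR199B, so this contrast is not one of MIR199A2 alone. The log2 ratio of hsa-miR-214-3p to hsa-miR-199a-3p was -7.39 ± 1.44 (SD, n = 3) in WT EV and -8.51 ± 0.83 (SD, n = 3) in KD EV (exact two-sided permutation p = 0.3), with 0 reads of hsa-miR-214-3p in 3 libraries. The difference of -1.12 became -1.94 without WT EV replicate 2, -0.60 without WT EV replicate 3 and -0.67 without KD EV replicate 1.

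Between the clusters, reads of the miR-199a and miR-214 members were set against those of the miR-143 and miR-145 members. The counts were 297 against 495, 278 against 547 and 298 against 491 in WT EV, and 384 against 551, 181 against 205 and 349 against 555 in KD EV. The log2 ratios were -0.74, -0.98 and -0.72 in WT EV and -0.52, -0.18 and -0.67 in KD EV. Every knockdown library lay above every control library, with a mean difference of 0.35 and an exact two-sided permutation p = 0.1, the smallest this design allows. The groups were barely apart, at -0.67 in KD EV replicate 3 against -0.72 in WT EV replicate 3, and no interval for counting error was computed. Most reads of the miR-199a and miR-214 members are of hsa-miR-199a-3p, which can also come from MIR199A1 and MIR199B, so this is not a ratio of 2 transcripts. The difference was 0.22 without KD EV replicate 2, the shallowest library, and 0.46 without KD EV replicate 3.

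Both hairpin families kept the same dominant arm in all libraries. hsa-miR-145-5p made up 29 of 31, 17 of 21 and 22 of 22 reads of both miR-145 arms in WT EV and 26 of 26, 10 of 10 and 11 of 12 in KD EV. The shares averaged 91.5% ± 9.69 and 97.2% ± 4.81 (SD, n = 3 each, exact two-sided permutation p = 0.7). The difference of 5.72 percentage points was 0.448 without WT EV replicate 2 and 9.97 without WT EV replicate 3. For miR-199a, the 3p arm made up 93.9%, 93.5% and 96.3% in WT EV and 89.1%, 88.4% and 94.8% in KD EV. The mean fell by 3.80 percentage points, the groups overlapped through KD EV replicate 3, and the exact two-sided permutation p was 0.3. A larger rise of hsa-miR-199a-5p than of hsa-miR-199a-3p was thus not shown. Reads of the 3p arm can also come from MIR199B, whose 5p arm, hsa-miR-199b-5p, is not counted in these percentages. They are therefore not the arm shares of the miR-199a hairpins alone.

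**Figure D3:**
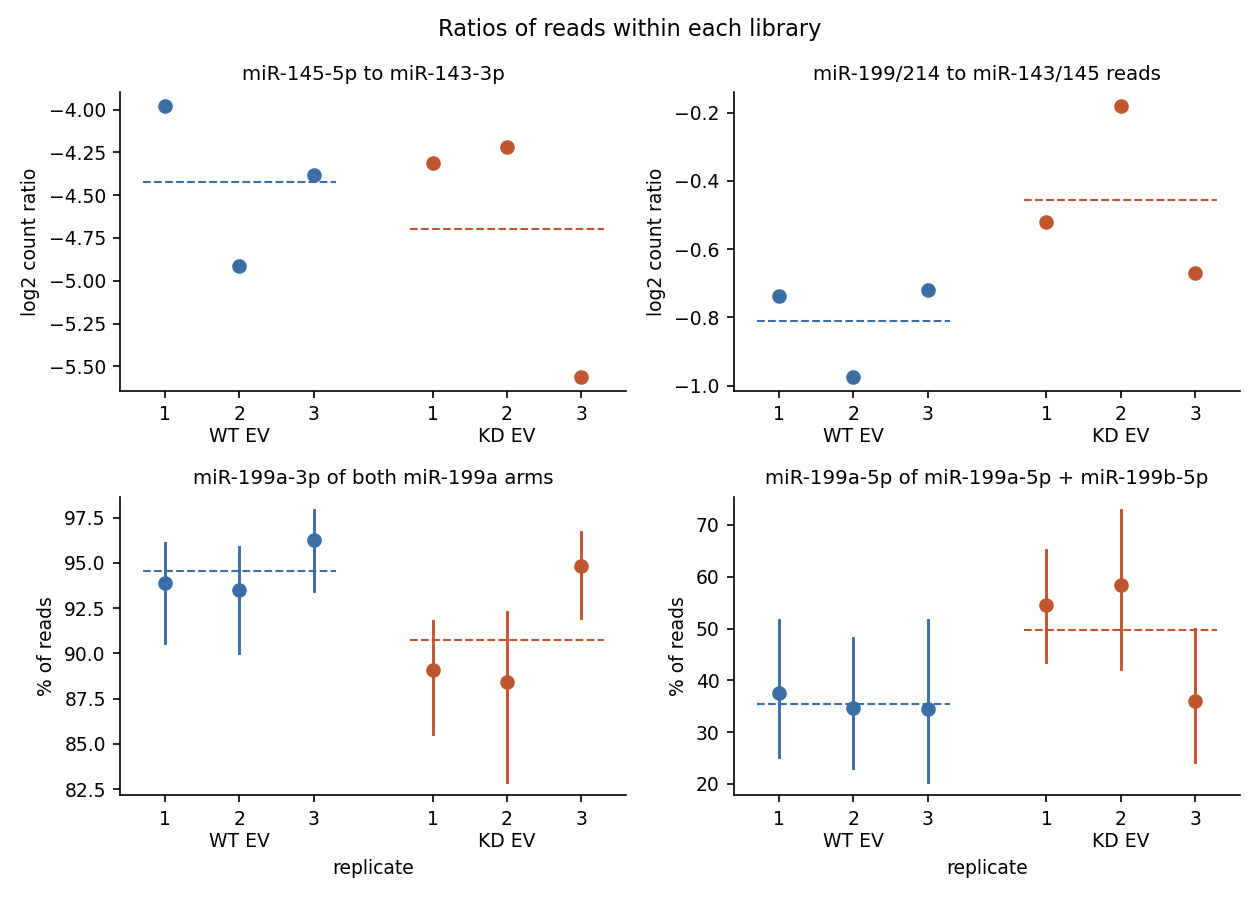
Ratios of reads within each library for WT EV (blue) and KD EV (orange), with group means as dashed lines. The upper panels give log2 count ratios without intervals and the lower panels give percentages of reads with 95% Wilson intervals, on axes that do not start at 0. Of these 4 ratios only that of the 2 clusters separates the groups, and KD EV replicate 3 sits with the control libraries in both lower panels.

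A list of 6 further miRNAs was examined, the other arms and paralogs of these hairpins together with hsa-miR-3120-5p and hsa-miR-3120-3p. Of these, 3 are in the table (hsa-miR-143-5p, hsa-miR-199b-5p and hsa-miR-199b-3p) and hsa-miR-214-5p, hsa-miR-3120-5p and hsa-miR-3120-3p are not. None passed an adjusted p of 0.05 with TMM. hsa-miR-199b-5p, made by MIR199B and not by the miR-199a hairpins, had 30, 34 and 21 reads in WT EV and 35, 15 and 32 in KD EV. Its log2 fold change was 0.38 (95% interval -0.24 to 1.00, adjusted p = 0.637 in the quasi-likelihood test of edgeR, Benjamini-Hochberg adjusted).

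hsa-miR-199a-5p and hsa-miR-199b-5p were then set against each other, a comparison chosen after their values were seen. hsa-miR-199a-5p made up 37.5%, 34.6% and 34.4% of the reads of both in WT EV and 54.5%, 58.3% and 36.0% in KD EV. Libraries 1 and 2 of the knockdown group stood above the controls, and replicate 3 lay among them (exact two-sided permutation p = 0.2). The sources used here do not state how a read that matches both 5p arms was assigned, so this split is uncertain. hsa-miR-143-5p, the minor arm of MIR143, had 7, 2 and 6 reads against 2, 0 and 0. That is 1.49%, 0.379% and 1.26% of both miR-143 arms in WT EV and 0.380%, 0% and 0% in KD EV, where 0 of 195 and 0 of 543 reads allow up to 1.54% and 0.552%, taken as 3 reads. Its exact two-sided permutation p was 0.2, and this share too was chosen after its values were seen.

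Over the 6 libraries, the summed TMM-scaled level of the miR-199a and miR-214 members resembled most that of hsa-let-7e-5p (Pearson's r = 0.986), hsa-miR-151a-3p (0.961) and hsa-miR-328-3p (0.958), among 208 miRNAs with a mean of at least 10 reads. The members themselves and the other arms and paralogs of their hairpins were not candidates, so hsa-miR-199b-3p, which repeats the reads of hsa-miR-199a-3p, is left out. That of the miR-143 and miR-145 members resembled most hsa-miR-136-3p (0.870), hsa-miR-222-5p (0.864) and hsa-miR-660-5p (0.854). These 6 points are 2 groups of 3 libraries with a shared scaling, so the values describe the libraries and carry no test.

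Lists of miRNAs known from other cell types show what else was in these EVs. They were chosen with earlier results of these data known, so their counts of calls are descriptive. With TMM, 2.51% of all tested miRNAs rose and 6% fell. The median log2 fold change of all tested miRNAs with TMM was -0.03 and that of the 6 members 0.04. Of 8 miRNAs known from cancer-associated fibroblasts and fibrosis, 1 fell, hsa-miR-21-5p (log2 fold change -1.44), and none rose, with a median of -0.01. hsa-miR-29a-3p, which represses collagen genes, had -0.02. Of 8 miRNAs of the imprinted 14q32 cluster of mesenchymal cells, 6 were tested and none passed, with a median of -0.18. hsa-miR-127-3p, the most abundant, had 0.44, and hsa-miR-379-5p had -0.27. Of 6 miRNAs of striated muscle, 5 had counts and 3 were tested, of which none passed. The summed level of the 5 was 26.7 to 147 TPM, and hsa-miR-1-3p and hsa-miR-133a-3p had log2 fold changes of 0.75 and 0.04.

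Several lists of blood and vessel miRNAs had levels like those of the members or above, and they did not move as 1 block. Both endothelial arms rose, hsa-miR-126-3p by 0.52 and hsa-miR-126-5p by 0.47 on the log2 scale, and their summed level was 10097 to 11305 TPM in WT EV and 17124 to 20465 TPM in KD EV. Of 7 blood-cell miRNAs, 2 rose, hsa-miR-150-5p of lymphocytes (0.72) and hsa-miR-223-3p of myeloid cells (0.51). Another 2, hsa-miR-451a (-0.94) and hsa-miR-486-5p (-1.08) of red cells, fell. The summed level of the 7 was 10378 to 11669 TPM in WT EV and 15065 to 16428 TPM in KD EV. hsa-miR-142-3p, the most abundant of them, had 0.10. hsa-miR-122-5p of liver had -0.10 and 1192 ± 119 TPM against 1429 ± 451 TPM (SD, n = 3 each), a level like that of hsa-miR-199a-3p. Of 7 epithelial miRNAs, hsa-miR-205-5p fell (-0.93) and the median was -0.59, with hsa-miR-200a-3p at -0.22. Of the 4 miRNAs abundant in this line, 3 fell, hsa-miR-100-5p (-0.89), hsa-miR-221-3p (-0.87) and hsa-miR-222-3p (-0.56), and hsa-miR-125b-5p had 0.10. With library totals the medians of these lists were 0.85 for endothelium, 0.45 for blood cells, -0.25 for epithelium and -0.36 for the line's own miRNAs, beside 0.39 for the 6 members. That scaling also changed calls: hsa-miR-222-3p and hsa-miR-205-5p no longer fell, and hsa-miR-125b-5p, hsa-miR-142-3p, hsa-miR-142-5p, hsa-miR-29a-3p, hsa-miR-210-3p, hsa-miR-127-3p and hsa-miR-199b-3p rose. With library totals 4 of the 7 blood-cell miRNAs thus rose and 2 fell, and 1 of the 4 abundant in this line rose and 2 fell. Of all tested miRNAs 11.2% rose and 2.51% fell with that scaling. The table holds no sequence of the reads and cannot tell human from bovine copies where both are identical, and the part that vesicles of other cells or of serum have in the values of the members was not tested.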

How the data were processed

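Small RNA libraries (NEBNext) of EVs pelleted by ultracentrifugation were analysed, 3 per group (WT EV and KD EV). The authors trimmed the reads, counted sequences in a short size range, dropped other RNA classes found in Rfam, and took known miRNAs from miRBase and unknown ones from predicted hairpins. The submitters' processing notes name hg38, Bowtie2 and StringTie. The authors deposited raw read counts for 832 miRNAs, and TPM values that equal CPM to within 4.99e-05. Reads with 2 matching names can enter both.

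The main test was edgeR 4.0.16 (R 4.3.3; quasi-likelihood, TMM, Benjamini-Hochberg over 517 miRNAs that had reads in 3 or more of the 6 libraries, no covariates). The prior degrees of freedom were infinite, so a miRNA with unusual spread gets too small a p-value. Ratios were compared by exact permutation over libraries with 0.5 added to each count, and shares without. Intervals of single libraries are 95% Wilson intervals and cover counting error only. Alternatives were other scalings, filters and pseudocounts, DESeq2 1.42.0, limma 3.58.1, a replicate block and each library left out. The tests were checked on simulated data. Members, lists and tests were chosen with earlier results of these data known. Named besides the members are their other arms, paralogs and seed matches, the 3 miRNAs most like each cluster, and up to 2 of each list by mean TPM. Other miRNAs of the lists were named because they passed the test. Gene positions are from RefSeq (GRCh38.p14), with identical hairpin coordinates in GENCODE.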

Additional observations from a re-analysis of the deposited data

How the results depend on the processing

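hsa-miR-199a-5p was higher in all 19 alternatives and passed in 16, the 3 others being fits without 1 library (1.05, 1.08 and 1.10). Over all fits without 1 library it ran from 1.05 to 1.58. hsa-miR-145-3p and hsa-miR-214-3p were below 0 wherever they were tested and never passed, and both left the fit with a mean TPM of at least 10 and without some libraries. Library totals raised the number of members that passed from 1 to 3 (0.54 for hsa-miR-143-3p, 0.82 for hsa-miR-199a-3p) and turned hsa-miR-145-5p to 0.24. Of all tested miRNAs 11.2% rose with library totals and 2.51% with TMM, and the counts for the other settings are given below. limma on log2(TPM + 1), log2(TPM + 0.1) and log2(TPM + 10) likewise gave 3, with 0.53, 0.53 and 0.53 for hsa-miR-143-3p, 0.82, 0.82 and 0.81 for hsa-miR-199a-3p, and 0.24, 0.24 and 0.22 for hsa-miR-145-5p. DESeq2 gave 2, with hsa-miR-199a-3p at 0.50 (adjusted p = 0.0203 by DESeq2), and library totals without hsa-miR-21-5p, an alternative added after seeing the data, gave 2 as well, with hsa-miR-199a-3p at 0.52. TPM carries no TMM factors, which is how limma comes to resemble library totals by construction; the cause of the DESeq2 call was not tested. Without 1 library the number of members that passed ran from 0 to 2, hsa-miR-143-3p from 0.082 to 0.28, hsa-miR-199a-3p from 0.40 to 0.53, hsa-miR-145-5p from -0.37 to 0.21 and the log2 ratio of hsa-miR-145-5p to hsa-miR-143-3p differed by -0.52 to 0.16. Counting hsa-miR-199a-3p and hsa-miR-199b-3p once, also added after seeing the data, left 1 member called.

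Of 517 miRNAs in the fit, 44 passed with TMM (13 higher, 31 lower) and 71 with library totals (58 higher, 13 lower). With limma and pseudocounts of 1, 0.1 and 10, 75, 57 and 76 of 517 passed (59, 45 and 60 higher). DESeq2 gave 41 of 517 (15 higher, 26 lower). Library totals without hsa-miR-21-5p gave 50 of 517 (23 higher, 27 lower). Without 1 library 19 to 65 passed, lowest without WT EV replicate 3, where 476 to 501 were tested in each such fit. Same-numbered libraries deviated together at r = 0.113, 0.117 and 0.000454, and 4 of 6 libraries correlated best with their own number. Nothing states that the numbers mark a shared batch, so the main fit did not pair the libraries by them. With a replicate block 1 member passed and hsa-miR-199a-5p was at 1.26, with no call of a member changed. Depth limits hsa-miR-145-3p and hsa-miR-214-3p altogether, and hsa-miR-145-5p and hsa-miR-199a-5p, at 10 to 42 reads, to large changes.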
